A study of Mus musculus with 4 samples.

Results

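The genes described here are 10 small nucleolar RNA host genes, namely Snhg1, Snhg3, Snhg4, Snhg5, Snhg6, Snhg7, Snhg8, Snhg9, Snhg12 and Gas5, among the 23235 gene symbols measured. They were chosen by symbol, starting from Snhg9, which was listed at 0 in both treated samples and above 0 in both controls. The question was whether the other 9 hosts lost RNA as well. The samples were mouse androgenetic haploid embryonic stem cells (haESCs), which carry a single chromosome set of paternal origin, from the 1 line HG165. There were 2 samples per group, labelled DMSO1 and DMSO2 for the solvent control and RDF1 and RDF2 for the cocktail of Repsox (a TGF-β inhibitor), DMH1 (a BMP4 inhibitor) and Forskolin (an activator of adenylate cyclase). The line is described as coming from young mice. Cells were in general kept in serum medium with LIF. The labels place haESCs on feeder cells, whereas the methods state that most experiments used none and do not list RNA sequencing among those that did. Doses, duration and passage for the sequenced cells are not given in the sources used here. Nothing states that the samples came from separate cultures, so a p-value here measures the spread between these samples, which may be technical.

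Small nucleolar RNAs (snoRNAs) are short noncoding RNAs of the nucleolus that guide chemical modification of ribosomal RNA. Box C/D snoRNAs guide ribose methylation and H/ACA snoRNAs guide pseudouridylation. In mammals most are cut out of the introns of a host transcript after splicing. The hosts described here encode no known protein, and the spliced host RNA of several, Gas5 among them, is degraded by nonsense-mediated decay when ribosomes translate its short open reading frames. The level of spliced host RNA therefore need not follow the level of the snoRNA inside it.

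Snhg9 is the shortest of the annotated hosts. In the mm9 annotation it lies on the minus strand at chr17:24856476-24856910, and its 2 exons of 106 and 77 nt are separated by an intron of 252 nt that holds the H/ACA snoRNA Snora78, at chr17:24856621-24856748. The 128 nt of Snora78 take up 50.8% of the intron. The gene is printed below 5′ to 3′ on its own strand, because the length of what is left after splicing, 183 nt, bears on every value given for it. Capitals mark a TATAAA in exon 1 that starts at base 35, the snoRNA in the intron, and an AATAAA, the usual polyadenylation signal, that is followed by 14 bases in exon 2.
Snhg9 exon 1, chr17:24856805-24856910: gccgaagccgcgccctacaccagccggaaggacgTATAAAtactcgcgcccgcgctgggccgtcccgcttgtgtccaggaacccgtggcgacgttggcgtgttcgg
Snhg9 intron, chr17:24856553-24856804: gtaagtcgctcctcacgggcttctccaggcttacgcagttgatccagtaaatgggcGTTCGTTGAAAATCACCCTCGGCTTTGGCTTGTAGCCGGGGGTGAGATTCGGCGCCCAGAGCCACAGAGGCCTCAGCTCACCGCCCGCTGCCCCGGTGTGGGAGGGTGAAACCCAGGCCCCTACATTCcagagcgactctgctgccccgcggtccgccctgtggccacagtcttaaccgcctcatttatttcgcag
Snhg9 exon 2, chr17:24856476-24856552: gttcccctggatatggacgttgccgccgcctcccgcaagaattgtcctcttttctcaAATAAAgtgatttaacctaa

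The host genes were set against all genes in FPKM, that is, fragments per kilobase of transcript and per sequencing depth. The files give no read counts, but the low values of long genes fell on steps of whole fragments and placed the depth at about 10650000 to 13350000 fragments per sample, with 45.4% to 50.9% of the low values within 0.1 of a whole number against 20% for values with no steps. A mean level of 1 FPKM or more was reached by 11733 genes, and of these 21.6% passed the test between RDF and DMSO, 13.3% as higher in RDF and 8.28% as lower (limma on log2(FPKM + 1), two-sided, Benjamini-Hochberg adjusted p under 0.05). The median log2 fold change of all genes tested was 0.03. The 6 embryonic stem cell markers examined, Pou5f1 and Nanog among them, were above 0 in all samples, with summed levels of 1510 to 1580 FPKM in DMSO and 1290 to 1390 FPKM in RDF. Pou5f1 holds most of that sum and was called lower, while 3 of the 6, Sox2, Zfp42 and Sall4, were called higher, and the median log2 fold change of the 6 was 0.23. The 6 fibroblast markers summed to 33.4 FPKM in both DMSO samples and to 14.3 and 14.7 FPKM in RDF. All 4 fibroblast markers that could be tested were lower in RDF, Col1a1 with values of 10.5 and 10.4 against 2.62 and 2.17 FPKM. Of the 2 under the level for testing, Lum had 0.11 and 0.0485 FPKM in DMSO and 0.513 and 0.827 FPKM in RDF, and Col3a1 overlapped between the groups. None of the 6 was at 0 in every sample. Their part in the host results was not tested. Fewer cells of a type and less RNA per cell cannot be told apart in bulk samples.

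The values of Snhg9 were 6.56 FPKM in DMSO replicate 1 and 33.6 FPKM in DMSO replicate 2, and it was listed at 0 in both RDF samples. The groups do not overlap, but the DMSO samples were themselves 5.12-fold apart, and this comparison was the one that chose the genes, so it is given as values with no test. The DMSO gap was 2.19 on the log2(FPKM + 1) scale, and 19 of the genes tested (0.162%) had one as large. Multiplied by depth and taken relative to the lower of them, the DMSO values stood at 1 to 5.94. The 1 is fixed by this scaling, so only 5.94, close to the whole number 6, bears on steps of whole fragments. If the lower value is 1 fragment, 7 fragments in all carry the Snhg9 signal. On that reading, the limit that a count of 0 allows, 3 fragments, corresponds to 15.7 FPKM in RDF replicate 1 and 17.3 FPKM in RDF replicate 2. The value of DMSO replicate 1 lies under both limits and that of DMSO replicate 2 lies above both. These limits cover counting error only.

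Snora23, a snoRNA outside the hosts with an annotated length of 184 nt, gives a scale for such values. It had 10.8 and 0 FPKM in DMSO and 8.33 and 8.93 FPKM in RDF. After multiplication by depth these stand at 1.06, 0, 1.03 and 1, relative to the lowest value above 0. The lowest step of an RNA of this length is therefore worth several FPKM in these samples. In DMSO replicate 1, however, it was 10.8 FPKM for Snora23 and 6.56 FPKM for Snhg9. These steps differ at nearly equal length, so whether either is 1 fragment is not settled. The fragment numbers and limits given for Snhg9 hold only on that reading. At a mean level of 1 FPKM or more, no gene other than Snhg9 was above 0 in both DMSO samples and at 0 in both RDF samples. This was the pattern that led to Snhg9, and a limit in FPKM passes short RNAs with few fragments, so the count is descriptive only. The opposite pattern, 0 in both DMSO samples and above 0 in both RDF samples, was seen in 3 genes, namely the small RNAs Scarna8 and Snora15 and the protein-coding S100a8. With no limit on level, 138 genes including Snhg9 had its pattern and 186 had the opposite one. The highest mean among the other 137 was 0.623 FPKM, for the histone gene Hist1h3d.

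**Figure D1:**
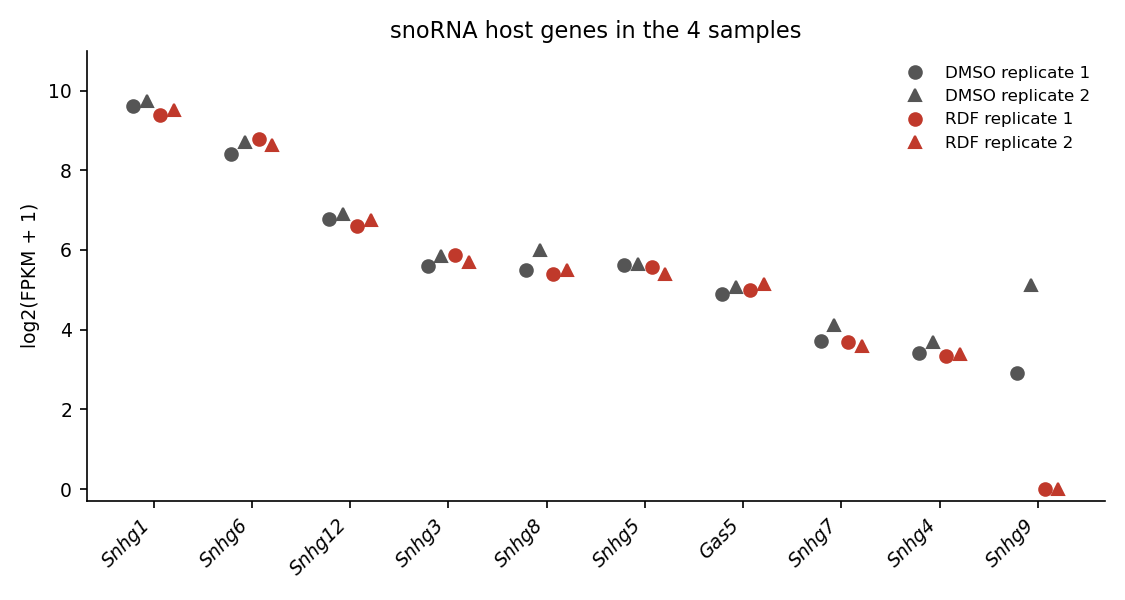
Level of each snoRNA host gene in log2(FPKM + 1) in the 4 samples, with the hosts ordered by mean level (circles, replicate 1; triangles, replicate 2; grey, DMSO; red, RDF). The 4 values of every host but Snhg9 sit close together, whereas Snhg9 has 6.56 and 33.6 FPKM in DMSO and 0 in both RDF samples.

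The other 9 hosts were all present in every sample, and none shared the pattern of Snhg9. All 9 were tested, and 0 were called higher and 0 lower in RDF (limma), where 21.6% of all genes were called. At an unadjusted p under 0.05 (limma) there was 1, Snhg1, which was lower, against 2637 higher and 1816 lower of all 11733 genes. The group mean in RDF was between 79.3% and 110% of that in DMSO. Log2 fold changes ran from -0.31 to 0.14 with a median of -0.18, and the widest 95% intervals reached -0.68 and 0.42. None of the 9 had a log2 fold change of 1 or more in size, against 1.41% of all genes. In 6 of the 9 both RDF values were below both DMSO values, a pattern held by 28.5% of all genes tested, and in 0 were both above, against 37.1%. The 6 were Snhg1, Snhg4, Snhg5, Snhg7, Snhg8 and Snhg12. This lean was not particular to them, since 39 of 79 ribosomal protein genes had both RDF values below and 0 had both above. Among other noncoding hosts in the files, 1 was below and 3 were above. Without DMSO replicate 1, 2 of the 9, Snhg7 and Snhg8, were called lower, and the fold changes of Snhg3, Snhg6 and Gas5 turned to -0.06, -0.01 and -0.01 on the log2 scale. That of Snhg3 also turned, to -0.01, without RDF replicate 1.

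Among the hosts of box C/D snoRNAs, Snhg1 was the most abundant of all the members. It lies at chr19:8797986-8800932 on the plus strand, with 8 snoRNAs annotated inside it. Its values were 789 and 851 FPKM in DMSO and 672 and 729 FPKM in RDF. All 4 samples kept the order of their groups, but the log2 fold change of -0.23 (SE 0.075, 95% interval -0.41 to -0.05) had an adjusted p of 0.0785 (limma). RDF samples held 85.4% of the DMSO mean.

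Gas5, whose RNA accumulates in growth-arrested cells and which holds 9 annotated snoRNAs at chr1:162964553-162968670 on the plus strand, was not lower in RDF samples. It had 28.8 and 32.8 FPKM in DMSO and 31.0 and 34.2 FPKM in RDF. The groups overlapped, and the log2 fold change was 0.08 (SE 0.085, 95% interval -0.13 to 0.29, adjusted p = 0.519 from limma). On the linear scale of FPKM + 1 that interval runs from 91.4% to 122% of the DMSO level.

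Snhg5, the host of Snord50 at chr9:88415894-88417721 on the minus strand, had 48.3 and 49.5 FPKM in DMSO and 46.4 and 41.5 FPKM in RDF. Its groups did not overlap, and the log2 fold change was -0.15 (SE 0.069, adjusted p = 0.164 from limma). Snhg6, the host of Snord87, was the second most abundant member, with 341 and 419 FPKM in DMSO and 444 and 393 FPKM in RDF. Both RDF values of Snhg6 stood above DMSO replicate 1, while DMSO replicate 2 lay between them. Its log2 fold change was 0.14 (SE 0.112, adjusted p = 0.396 from limma).

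Among the hosts of H/ACA snoRNAs, Snhg12 at chr4:131864593-131866939 on the plus strand also carries a C/D snoRNA. It had 109 and 119 FPKM in DMSO and 95.4 and 106 FPKM in RDF, a log2 fold change of -0.18 (SE 0.075, adjusted p = 0.132 from limma). Snhg3, the host of Snora73a and Snora73b, lies 37.0 kb away on the opposite strand at chr4:131903929-131909601. It had 47.4 and 56.7 FPKM in DMSO and 57.5 and 51.3 FPKM in RDF, so that the groups overlapped and the log2 fold change was 0.07 (SE 0.1, adjusted p = 0.666 from limma). These neighbours on chromosome 4 thus had fold changes of opposite sign, neither of them past the threshold.

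Snhg7, at chr2:26492697-26495764 on the minus strand, had 12.2 and 16.3 FPKM in DMSO and 11.8 and 11.1 FPKM in RDF. Snhg8, the host of Snora24, had 44.3 and 63.2 FPKM in DMSO and 41.5 and 43.8 FPKM in RDF. In both hosts, DMSO replicate 1 was close to the RDF samples and DMSO replicate 2 stood above the other samples. The log2 fold changes were -0.28 for Snhg7 (SE 0.132, adjusted p = 0.182) and -0.31 for Snhg8 (SE 0.155, adjusted p = 0.203, both from limma), the lowest among the 9. Without DMSO replicate 1 both passed the threshold, at -0.47 for Snhg7 (adjusted p = 0.0224) and -0.56 for Snhg8 (adjusted p = 0.00705, both from limma). Without DMSO replicate 2 they were -0.08 (adjusted p = 0.62) and -0.05 (adjusted p = 0.672, both from limma). In such fits a gene's own spread comes from the RDF pair alone and is drawn toward the trend over all genes. The lone DMSO sample is assumed to vary likewise. Snhg4, the host of Snora74a at chr18:35713064-35717970 on the plus strand, had the lowest level of the 9, with 9.62 and 11.9 FPKM in DMSO and 9.04 and 9.44 FPKM in RDF (log2 fold change -0.19, SE 0.107, adjusted p = 0.238 from limma).

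**Figure D2:**
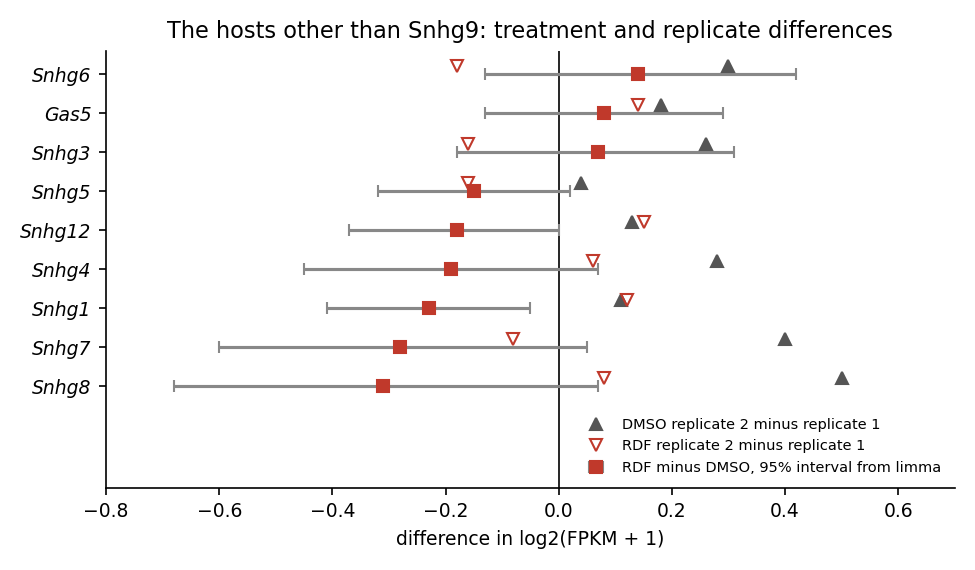
Differences in log2(FPKM + 1) for the 9 hosts other than Snhg9. Squares are RDF minus DMSO with the 95% interval from limma, filled triangles are DMSO replicate 2 minus replicate 1, and open triangles are RDF replicate 2 minus replicate 1. All filled triangles lie above 0, and in 6 of the 9 hosts the distance between the DMSO samples exceeds that between the groups.

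In order of mean FPKM over the 4 samples, the hosts were Snhg1 (760), Snhg6 (399), Snhg12 (107), Snhg3 (53.2), Snhg8 (48.2), Snhg5 (46.4), Gas5 (31.7), Snhg7 (12.9) and then, at the same mean to 3 digits, Snhg9 and Snhg4. FPKM is a level per length, but the place of Snhg9 is not comparable, since it is shorter than the length correction used for depth and its mean pools DMSO values with RDF values of 0. The ranges over the 4 samples overlapped between neighbours for Snhg3 and Snhg8, Snhg8 and Snhg5, Snhg7 and Snhg9, and Snhg9 and Snhg4. The other neighbours in the order did not overlap. The 9 hosts other than Snhg9 stood between the 49.6th and 98.8th percentile of level among genes tested.

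The DMSO samples differed from each other in a direction that all 10 hosts shared. DMSO replicate 2 was above DMSO replicate 1 in 10 of 10 hosts, against 48.3% of all genes tested. RDF replicate 2 was above RDF replicate 1 in 5 hosts and below it in 4, against 55.3% above for all genes. For the 9 hosts other than Snhg9, the median distance between the DMSO samples was 0.26 on the log2 scale, and 0.09 for all genes. The distance between the RDF samples was 0.14 and 0.09. The part of this replicate difference in the group comparison was not tested beyond leaving out each sample.

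Transcript length moved with that difference. Among genes whose longest annotated transcript was 500 to 1000 nt, 70.0% were higher in DMSO replicate 2, and among those of 200 to 500 nt it was 67.9%. From 2000 nt upwards it was 45.7%. Under 200 nt, where Snhg9 lies, DMSO replicate 2 was higher in 47.1% of 34 genes, but 58.8% of these genes were 2-fold or more apart between the DMSO samples and 38.2% between the RDF samples. In genes of 2000 nt or more those shares were 0.0719% and 0.024%. The longest annotated transcripts were 581 nt for Snhg3, 933 nt for Snhg12, 993 nt for Snhg5, 1151 nt for Snhg4, 2366 nt for Snhg7, 2556 nt for Gas5 and 2719 nt for Snhg1. Shorter ones are annotated too, down to 332 nt for Snhg3, 364 nt for Snhg12, 741 nt for Snhg7, 346 nt for Gas5 and 2339 nt for Snhg1. Which of them the cells expressed was not tested, so the length range of these hosts is not settled. Snhg6 and Snhg8 have no entry in the annotation used here.

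**Figure D3:**
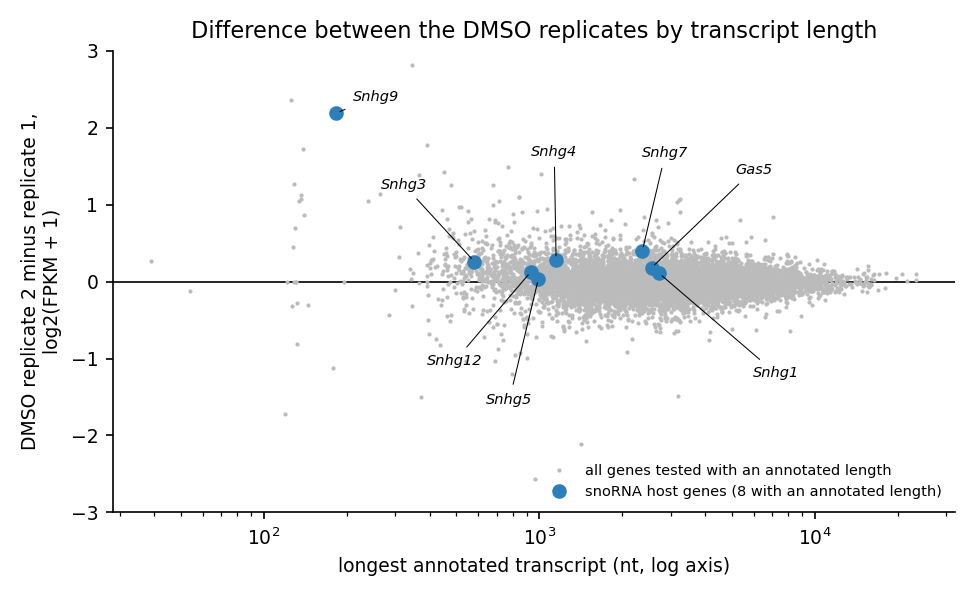
Difference between the DMSO samples (replicate 2 minus replicate 1, log2(FPKM + 1)) against the longest annotated transcript in nt on a log axis, for genes tested (grey) and the 8 hosts with an annotated length (blue), with 13 genes outside the vertical range of -3 to 3. All 8 hosts lie above 0, and Snhg9, at 183 nt, lies at 2.19 among short RNAs that scatter widely.

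The snoRNAs inside the hosts were measured in part, since the libraries were made from mRNA and a mature snoRNA carries no poly(A) tail. Of 10 such symbols in the files, 7 were above 0 in at least 1 sample, and the other 3, Snora61 and Snord99 of Snhg12 and Snord47 of Gas5, were listed at 0 in all 4 samples. All 7 were tested and 0 were called (limma), against 21.6% of all genes tested. At an unadjusted p under 0.05 (limma) there was 1, Snora78, which was lower. Of all 11733 genes, 2637 were higher and 1816 lower at that level. Of the 114 snoRNA and scaRNA symbols in the files, 30 were above 0, 29 were tested and 3 were called in either direction, beside the same 21.6% of all genes.

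Snora78, in the intron of Snhg9, was detected in all 4 samples. It had 55.0 and 75.1 FPKM in DMSO and 14.5 and 46.0 FPKM in RDF, so both RDF values were below both DMSO values and neither was 0. The log2 fold change was -1.27 (SE 0.477, 95% interval -2.43 to -0.11, adjusted p = 0.108 from limma). Without RDF replicate 2 it passed the threshold, at -2.07 (adjusted p = 0.0294 from limma), and without RDF replicate 1 it was -0.47. The adjusted p reached 0.226 over the 4 samples left out in turn, so both the call and the size turn on 1 library. Multiplied by depth, its values stood at 3.02, 4.79, 1 and 2.89 relative to the lowest. The host was listed at 0 both in RDF replicate 1, which had the lowest Snora78 value, and in RDF replicate 2, where Snora78 was near its level in DMSO replicate 1.

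For each of the 7 detected snoRNAs, Snora78 included, the larger gap within a group exceeded the difference between the groups on the log2 scale. The other 6 belong to other hosts. Snord22, inside Snhg1, had 71.4 and 369 FPKM in DMSO and 438 and 310 FPKM in RDF. Snora17, the more abundant of the snoRNAs of Snhg7, had 843 and 481 FPKM in DMSO and 613 and 521 FPKM in RDF. Snora43, also of Snhg7, had 40.5 and 136 FPKM in DMSO and 32.7 and 35.6 FPKM in RDF. As for Snora78, both its RDF values were below both DMSO values. Thus DMSO replicate 2 was the lowest of the samples for 1 snoRNA of Snhg7 and the highest for the other. Snora44 of Snhg12 had 159 and 385 FPKM in DMSO, and 540 FPKM and 0 in RDF, so that an RNA with at least 159 FPKM in 3 samples was listed at 0 in the other. Snora16a, of the same host, had 0 and 94.6 FPKM in DMSO, and 0 and 32.0 FPKM in RDF, and Snora74a of Snhg4 was above 0 only in RDF replicate 2, at 8.19 FPKM.

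**Figure D4:**
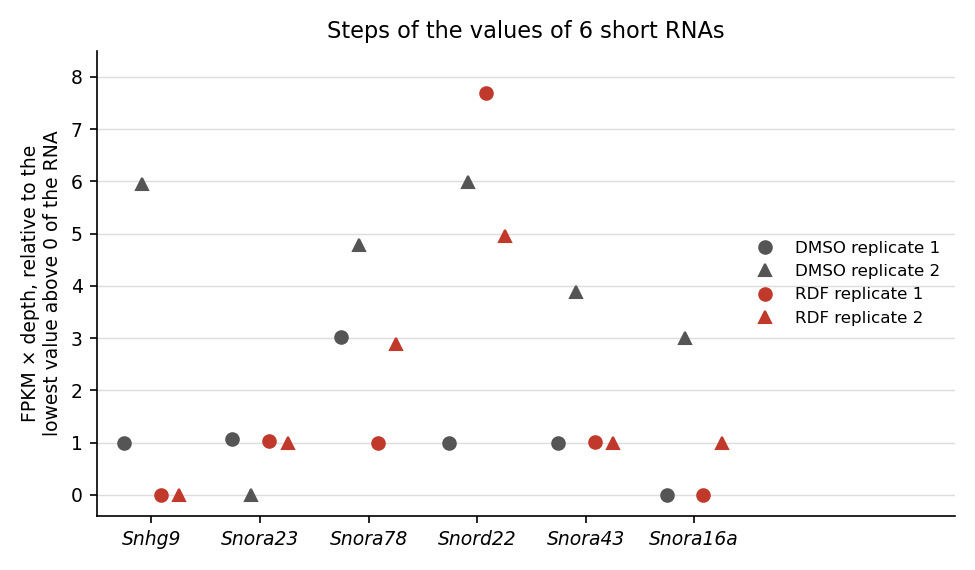
FPKM multiplied by the estimated depth, relative to the lowest value above 0 of each RNA, for Snhg9 and 5 snoRNAs in the 4 samples (circles, replicate 1; triangles, replicate 2; grey, DMSO; red, RDF). Snhg9 lies at 1 and 5.94 in DMSO and at 0 in both RDF samples, and Snora23, of nearly the same annotated length, lies near 1 or at 0 in every sample.

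The genes next to the hosts were examined for changes of the same region. Within 5 kb of a host 11 protein-coding neighbours were found, at 7 of the hosts. Of the 9 tested, 3 were called lower in RDF, against 8.28% of all genes, and 0 higher (limma). At an unadjusted p under 0.05 (limma), 4 were lower and 0 higher, against 1816 and 2637 of all 11733 genes.

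Snhg9 lies inside the span of Rps2, which encodes a protein of the small ribosomal subunit, on the opposite strand. Rps2 had 6590 and 6790 FPKM in DMSO and 6150 and 5980 FPKM in RDF, a log2 fold change of -0.14 (SE 0.097, adjusted p = 0.334 from limma). An exon of 1 Rps2 transcript shares 14 nt with exon 1 of Snhg9. The library kit keeps strand, but whether the counting used it is not stated, so reads from these 14 nt cannot be assigned with certainty. On the other side, Ndufb10, a subunit of respiratory complex I on the same strand as Snhg9, has its near end 2094 bp away. It had 163 and 169 FPKM in DMSO and 131 and 141 FPKM in RDF. Ndufb10 fell by 0.28 on the log2 scale (SE 0.061, adjusted p = 0.0249 from limma), and the adjusted p reached 0.132 without 1 of the samples, being past the threshold only without DMSO replicate 1. Rnf151, 1473 bp away, was under the level for testing.

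Rcc1, the exchange factor of the GTPase Ran, overlaps Snhg3 on the same strand. It had 71.6 and 72.4 FPKM in DMSO and 58.4 and 59.2 FPKM in RDF and fell by 0.29 on the log2 scale (SE 0.051, adjusted p = 0.0136 from limma), while Snhg3 had a log2 fold change of 0.07. The call was lost without either RDF sample (adjusted p up to 0.0856 from limma). How fragments of shared exons were divided between Rcc1 and Snhg3 is not stated. Slc3a2, the heavy chain of amino acid transporters, starts 126 bp from Snhg1 on the other strand. It had 372 and 374 FPKM in DMSO and 315 and 328 FPKM in RDF, a fall by 0.21 on the log2 scale beside the -0.23 of Snhg1 (SE 0.056, adjusted p = 0.0412 from limma). That call was lost when any 1 sample was left out (adjusted p from 0.0826 to 0.195 from limma).

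Other neighbours tested gave no call. Log2 fold changes were 0.14 for Phactr4 beside Snhg3, 0.1 for Matr3 beside Snhg4, 0.0 for Fam69b beside Snhg7 and -0.14 for Trnau1ap beside Snhg12. Their adjusted p ran from 0.223 for Phactr4 to 0.992 for Fam69b (limma). Zbtb37, which overlaps Gas5 on the opposite strand, was under the level for testing.

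The start regions of the hosts share features that the choice of genes did not use. Transcripts of many snoRNA hosts begin with a C followed by a run of pyrimidines (terminal oligopyrimidine, or TOP, transcripts), as do those of ribosomal proteins, and their use by ribosomes depends on growth signals. RefSeq windows on GRCm38.p6, from 250 bases before to 50 after the start, were found for 8 of the 10 hosts, not for Snhg4 and Snhg6. A C followed by at least 4 bases that are each C or T, within 20 bases of the start on the gene's strand, was present in 7 of the 8, against 49.9% of 27025 symbols and 78.9% of 57 ribosomal protein genes. TATAAA on either strand anywhere in the window was present in 6 of the 8, against 15.7% of all symbols and 10.5% of the ribosomal protein genes. On the gene's strand it was 5 of the 8 against 9.8% of all symbols. A match describes the letters of a window only.

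Windows of 100 bases around the annotated start, 50 on each side, show how Snhg9 is placed among hosts detected in all 4 samples. Capitals mark TATAAA and the run of pyrimidines that follows a C.
Snhg9: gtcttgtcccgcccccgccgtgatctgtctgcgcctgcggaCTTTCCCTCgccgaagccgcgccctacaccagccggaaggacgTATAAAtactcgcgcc
Snhg8: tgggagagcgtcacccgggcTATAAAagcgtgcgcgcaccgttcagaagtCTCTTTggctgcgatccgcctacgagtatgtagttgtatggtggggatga
Snhg7: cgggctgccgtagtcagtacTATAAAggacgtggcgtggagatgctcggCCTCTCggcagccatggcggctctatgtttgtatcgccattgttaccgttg
Snhg5: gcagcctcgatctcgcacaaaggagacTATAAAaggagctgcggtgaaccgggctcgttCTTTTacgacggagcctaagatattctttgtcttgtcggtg
Snhg12: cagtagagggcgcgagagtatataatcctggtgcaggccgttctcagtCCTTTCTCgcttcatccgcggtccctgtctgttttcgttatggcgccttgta
The TATAAA of Snhg7 and Snhg8 begins at base -30 and that of Snhg5 at -23 from the start. In Snhg9 it begins at 34 after the annotated start, within exon 1, and in Snhg3 at 22 after it. Snhg12 has the pyrimidine run but no TATAAA in its window. The run of Snhg9 begins at -9 and ends before the annotated start, and that of Snhg5 begins at 9. It begins at 0 in Snhg8, -1 in Snhg7 and -2 in Snhg12. Snhg1, whose window is not shown, has no such run, and Gas5 has a window with it and a window without it.

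Related genes were examined as lists, with counts read against the 13.3% and 8.28% of all genes called higher and lower. At an unadjusted p under 0.05 (limma), 2637 of the 11733 genes were higher and 1816 lower. Of 9 other noncoding hosts in the files, all tested, 0 were called higher (limma, 1 at an unadjusted p under 0.05) and 1 was called lower. That 1 was 1810032O08Rik, the older symbol of Snhg16, with 39.2 and 42.1 FPKM in DMSO and 34.4 and 34.3 FPKM in RDF (log2 fold change -0.23, adjusted p = 0.0404 from limma). The call was lost without DMSO replicate 2 and without either RDF sample (adjusted p up to 0.16). The median log2 fold change of the 9 was 0.17, of the opposite sign to the -0.18 of the 9 hosts described above. The lowest was Snhg10 at -0.28 (adjusted p = 0.608) and the highest 2810008D09Rik, now Snhg20, at 0.46 (adjusted p = 0.191, both from limma). Zfas1, listed as 1500012F01Rik, had 116 and 136 FPKM in DMSO and 163 and 143 FPKM in RDF, with an adjusted p of 0.0926 (limma).

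Among 36 protein-coding genes that carry snoRNAs in their introns, 2 rose and 2 fell. At an unadjusted p under 0.05 (limma), 2 were higher and 4 lower. Eif4a2, an RNA helicase of translation initiation, rose from 316 and 299 FPKM to 453 and 437 FPKM (log2 fold change 0.53, SE 0.06, adjusted p = 0.00374 from limma), and Eif5, an initiation factor, rose by 0.28 on the log2 scale (adjusted p = 0.0242). Rpl30, a protein of the large ribosomal subunit, fell from 114 and 151 FPKM to 69.9 and 85.0 FPKM, by 0.76 on the log2 scale (SE 0.149, adjusted p = 0.0185 from limma). Eef2, the factor that moves the ribosome along the mRNA, fell by 0.35 on the log2 scale (adjusted p = 0.0317 from limma). The median of the list was -0.09, and 0.02 with quantile normalization. Of these calls, that of Eif4a2 held without each sample in turn, while those of Rpl30, Eef2 and Eif5 were lost without either RDF sample, and also without DMSO replicate 1 for Eef2 and DMSO replicate 2 for Eif5.

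Of 79 ribosomal protein genes, 22 of them also in the list of hosts, 1 was called lower, Rpl30, and 0 higher (limma). At an unadjusted p under 0.05, 8 were lower and 0 higher (limma). The median log2 fold change was -0.13, and 74 of the 79 were higher in DMSO replicate 2 than in DMSO replicate 1, the direction that the 10 hosts had. Without DMSO replicate 1, 9 were called lower. The lowest value was that of Rps27, at -2.03 (SE 0.813, adjusted p = 0.125 from limma), with 602 and 4260 FPKM in DMSO and 349 and 437 FPKM in RDF. Short ribosomal protein genes have many near-identical copies in the genome, and how reads shared among them were assigned is not stated. Of the 15 other translation genes with TOP transcripts, 1 fell, Eef2, and 0 were called higher (limma). At an unadjusted p under 0.05, 5 were lower and 0 higher (limma). The median was -0.13, and the highest value was that of Npm1 (0.03, adjusted p = 0.825 from limma). In this list 5 of the 15 were higher in DMSO replicate 2. Both RDF values were below both DMSO values in 9 of the 15 and above them in 0.

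The proteins that bind snoRNAs and the pathway that degrades spliced host RNA were measured too. Of 8 core proteins of the snoRNA particles, 0 were called in either direction (limma, 3 lower and 0 higher at an unadjusted p under 0.05), with a median of -0.14. They ran from Nop10, of the H/ACA particle, at -0.36 (adjusted p = 0.125) to Nop58, of the C/D particle, at 0.03 (adjusted p = 0.683, both from limma). Fbl, the methyltransferase of the C/D particle, had 333 and 363 FPKM in DMSO and 331 and 314 FPKM in RDF. Of 10 assembly factors, Nolc1, a chaperone of snoRNA particles, fell from 59.0 and 59.7 FPKM to 46.9 and 48.4 FPKM (by 0.31 on the log2 scale, SE 0.053, adjusted p = 0.0124 from limma), a call lost without either RDF sample (adjusted p up to 0.0829). None of the 10 was called higher (limma, 2 lower and 0 higher at an unadjusted p under 0.05). The highest was Znhit3 at 0.16.

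Of 10 factors of nonsense-mediated decay, 2 rose and 0 were called lower (limma, 2 higher and 0 lower at an unadjusted p under 0.05). Smg1, the kinase that phosphorylates Upf1, rose from 7.21 and 6.89 FPKM to 9.07 and 10.6 FPKM (log2 fold change 0.43, SE 0.095, adjusted p = 0.027 from limma). The helicase Upf1 itself had a log2 fold change of 0.04 (adjusted p = 0.703 from limma), and Upf3a was the lowest of the list at -0.14 (adjusted p = 0.292). Smg1 was no longer called without any 1 of the samples (adjusted p from 0.0507 to 0.13).

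**Figure D5:**
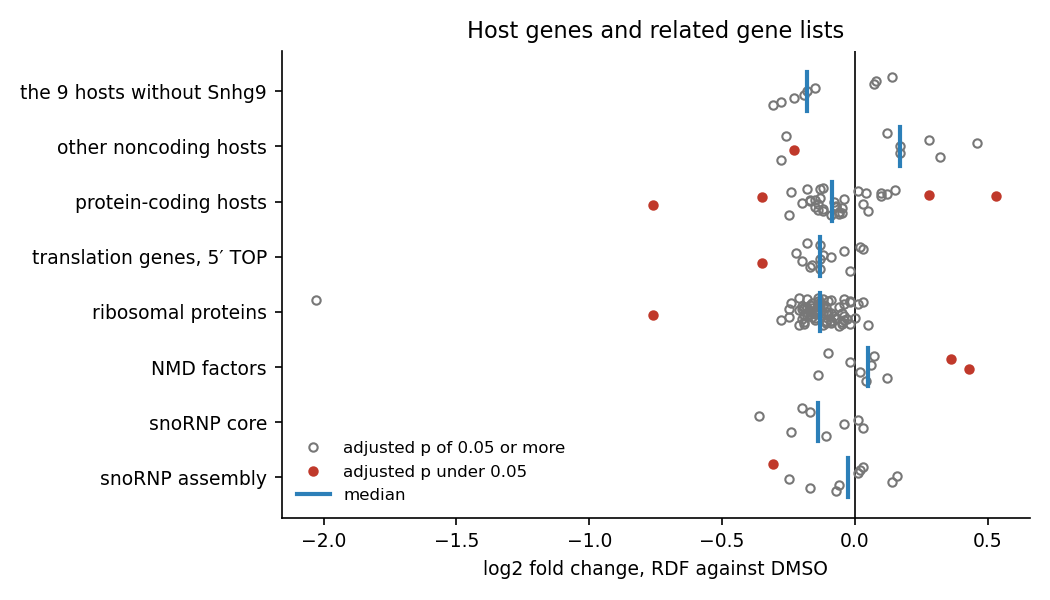
Log2 fold change of RDF against DMSO for each tested gene of the host lists and related lists (filled, adjusted p under 0.05 from limma; open, 0.05 or more; blue bar, median). The 9 hosts without Snhg9 have a median of -0.18 and no filled point, the other noncoding hosts 0.17 and the ribosomal protein genes -0.13, while the protein-coding hosts change sign from -0.09 to 0.02 with quantile normalization.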

How the data were processed

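Total RNA from 2 DMSO and 2 RDF samples of mouse haESCs was converted to stranded mRNA libraries, sequenced and processed by the authors. The values deposited are FPKM per gene symbol, 1 file per sample, which the authors made with TopHat2 2.0.14, Bowtie2 2.1.0 and Cufflinks 2.2.1 on mm9, as their processing notes and methods state. Use of strand, treatment of reads with several positions and filters are not given in the sources used here. Exact values of 0 can be failed estimates.

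Genes whose mean level reached 1 FPKM entered a limma fit (version 3.58.1, R 4.3.3, lmFit, eBayes with a mean-variance trend) on log2(FPKM + 1), with Benjamini-Hochberg adjustment over all 11733 genes. A fold change on this scale understates that of low genes. An exact permutation test of 2 against 2 samples cannot go below p = 0.333. The code was tested on simulated data.

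Relative depth was estimated from the spacing of low values of single-transcript genes of at least 1500 nt, with transcript length shortened by 200 nt. Snhg9 is shorter than that offset, so steps within 1 RNA were compared across samples only. Positions came from the GENCODE annotation on NCBIM37, which is mm9. RefSeq start windows and older symbols were from GRCm38.p6.

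The hosts and all lists were chosen with earlier results of these data known. The rule for naming genes took all 10 hosts, every snoRNA inside them, every nearest gene within 5 kb and, from each list, its extremes and up to 2 more by list order. Other genes named (called genes such as Eif5, and Zfas1, Snora23, Scarna8, Snora15, S100a8 and Hist1h3d) were chosen after their values were seen. Not every gene that these rules select is reported here. Deviations of samples with the same number correlated at 0.134 (Spearman 0.114) over 11733 genes. Alternatives changed the pseudocount, filter, scaling, trend, block, short transcripts and each sample in turn.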

Additional observations from a re-analysis of the deposited data

How the results depend on the processing

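No host other than Snhg9 was called higher under any of the 13 alternatives. Called lower were 2 with the replicate block, Snhg1 (-0.23, adjusted p = 0.0449) and Snhg12 (-0.18, adjusted p = 0.0473, limma), where the snoRNA Snora78 passed too (adjusted p = 0.0226), and 2 without DMSO replicate 1 (range without each sample 0 to 2), Snhg7 (-0.47, adjusted p = 0.0224) and Snhg8 (-0.56, adjusted p = 0.00705, limma). Same-numbered samples share only a number, and their deviations correlated at 0.134. Signs turned without DMSO replicate 1 for Snhg3 (-0.06), Snhg6 (-0.01) and Gas5 (-0.01), and without RDF replicate 1 for Snhg3 (-0.01). Of 117 host values, 109 kept direction and side of the threshold. Without each sample in turn, log2 fold changes ran for Snhg3 from -0.06 to 0.19, Snhg6 from -0.01 to 0.29, Gas5 from -0.01 to 0.17, Snhg7 from -0.47 to -0.08 and Snhg8 from -0.56 to -0.05. The cause was not tested.

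Over all genes, 1028 were called higher with no filter on low values, which tests more genes. Without each sample in turn, 253 to 1121 were called higher and 195 to 731 lower, with 358 and 235 without RDF replicate 1 and 253 and 195 without RDF replicate 2, where fewer samples remain. With the replicate block the numbers were 1651 and 1066.

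With no filter on low values, 0 other noncoding hosts, 0 protein-coding hosts, 0 TOP translation genes and 0 ribosomal protein genes were lower, and 1 decay factor was higher. With no mean-variance trend, 0 other noncoding hosts were lower and 1 protein-coding host was higher. With quantile normalization, 1 protein-coding host and 0 TOP translation genes were lower, with medians of 0.02 and -0.05. With median-ratio scaling, 2 ribosomal protein genes and 2 snoRNP core proteins were lower. With the replicate block there were 3 and 2, and with no transcripts under 300 nt there were 2 and 1.

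Without each sample in turn, calls ran from 0 to 1 (higher and lower alike) for other noncoding hosts. For protein-coding hosts they ran from 1 to 2 higher and 0 to 3 lower, with medians from -0.14 to 0.00. Lower calls ran from 0 to 2 for TOP translation genes, from 0 to 9 for ribosomal proteins (medians -0.20 to -0.04), from 0 to 2 for core proteins (medians -0.18 to -0.06) and from 0 to 1 for assembly factors. Higher calls ran from 0 to 1 for decay factors.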
